A study of Mus musculus and Homo sapiens with 22 samples.

Results

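The transcripts described here are the long intergenic noncoding RNAs (lincRNAs) that HEK293 tau biosensor cells contain at a moderate level or above. A gene was taken when the deposited annotation typed it as lincRNA and its level was at least 2 FPKM (fragments assigned to a gene, scaled to transcript length and library size) in both libraries of total RNA. NEAT1, MALAT1, PVT1, FTX, KCNQ1OT1, TUG1, MIAT, GAS5, ZFAS1 and the SNHG snoRNA hosts were left out by name. This left 73 of the 1009 lincRNAs listed, among 23674 distinct gene names. Of the 82 lincRNAs that met the level, 9 were left out by name. The genes were thus selected on their FPKM in total RNA, which is also one arm of the comparison with aggregates, so the counts below describe the 73 lincRNAs beside the same counts over other genes. The rule itself used no values of the aggregate libraries, the introns or the mouse libraries. It was set with earlier results of these data known, so the choice was not independent of them.

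LincRNAs are transcribed from loci that lie apart from protein-coding genes, and most are capped, spliced and polyadenylated like mRNAs while coding for no known protein. Many stay in the nucleus, where some act on chromatin near their own gene, as XIST does in silencing the inactive X chromosome. The annotated class is mixed: it also holds the RNA subunits of the enzymes telomerase and RNase MRP, host transcripts of microRNAs, transcripts read from the strand opposite to a gene, and transcripts that lie inside an intron of another gene.

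HEK293 is a line derived from human embryonic kidney. The biosensor cells carry CFP and YFP fusions of the tau repeat domain (RD) bearing P301S, and thus model aggregation of a fragment of tau and not of the whole protein. All 4 libraries at 24 h came from cells that had received clarified brain homogenate of P301S mice, 200 ug per dish, and no unseeded library at 24 h was analysed here. Total RNA of the cells (n = 2) was compared with RNA of tau aggregates enriched by centrifugation and then sorted as fluorescent particles (n = 2), with 1 plate per replicate per the labels. Cells at 96 h with aggregates (n = 3, the same homogenate) and mock-transfected cells without aggregates (n = 3) gave the authors' deposited tables of introns and splicing. Mouse brain served for genes of the same name: rTg4510 mice carry human tau with the P301L change, rTg21221 mice carry wild-type (WT) human tau, both under tTA driven by the Camk2a promoter, and the rTg4510 strain as labelled also carries a tdTomato-Syp/EGFP transgene. The titles of the P301L immunoprecipitates read P301S while their strain and source read P301L, and the strain was followed here. Total RNA, RNA insoluble in 1% sarkosyl and RNA precipitated from it with the tau-12 antibody had n = 2 each per genotype; age is not given in the labels.

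Assigned reads numbered 13.7 M and 13.8 M in total RNA but 1.19 M and 0.879 M in aggregates, so 3 reads on a transcript of 1 kb equal 0.219, 0.217, 2.52 and 3.41 FPKM in turn. Of 8 HEK293 markers 3 (VIM, NEFM and INA) were called lower in aggregates and none higher, beside 19.7% lower and 22.2% higher of all genes tested. Among those not called, KRT18, PAX2 and LHX1 lay above both total libraries in both aggregate libraries, and NEFL and KRT8 lay below. The summed level of the 8 was 283 and 273 FPKM in total RNA and 182 and 149 FPKM in aggregates. VIM made up 197 and 190 FPKM of it in total RNA and 106 and 91.4 FPKM in aggregates. All 8 brain cell markers were too low to be tested, with a summed level of 0.967 to 1.51 FPKM over the 4 libraries and 1 of them at 0 throughout. The nuclear RNAs moved apart, NEAT1 by 3.16 ± 0.15 (log2 change ± SE) and MALAT1 by -0.58 ± 0.10. The part of these shifts in the results on lincRNAs was not tested.

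Most of the 73 lincRNAs had a higher FPKM in tau aggregates than in total RNA. The change was positive for 54 and negative for 19, with a median of 0.59 on the log2(FPKM + 1) scale, quartiles of -0.02 and 0.98, and a range of -1.18 to 2.00. Over all 13163 genes tested the median change was 0.07, and over the 11242 genes that met the same level in total RNA it was -0.00. Changes are aggregate minus total, and the call is an adjusted p (Benjamini-Hochberg, limma, over all genes tested) of less than 0.05. By this call 28 lincRNAs were higher in aggregates, 2 were lower and 43 were not called. Among all genes tested 22.2% were called higher and 19.7% lower, and among genes that met the same level these shares were 20.6% and 22.1%. The lincRNAs thus had 38.4% called higher, above the background, and 2.74% called lower, below it. Called increases ran from 1.39-fold to 4.57-fold in mean FPKM, with a median of 2.37-fold. FPKM is a share of the reads of a library, so more copies of a lincRNA per aggregate and fewer copies of other RNAs cannot be told apart.

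**Figure D1:**
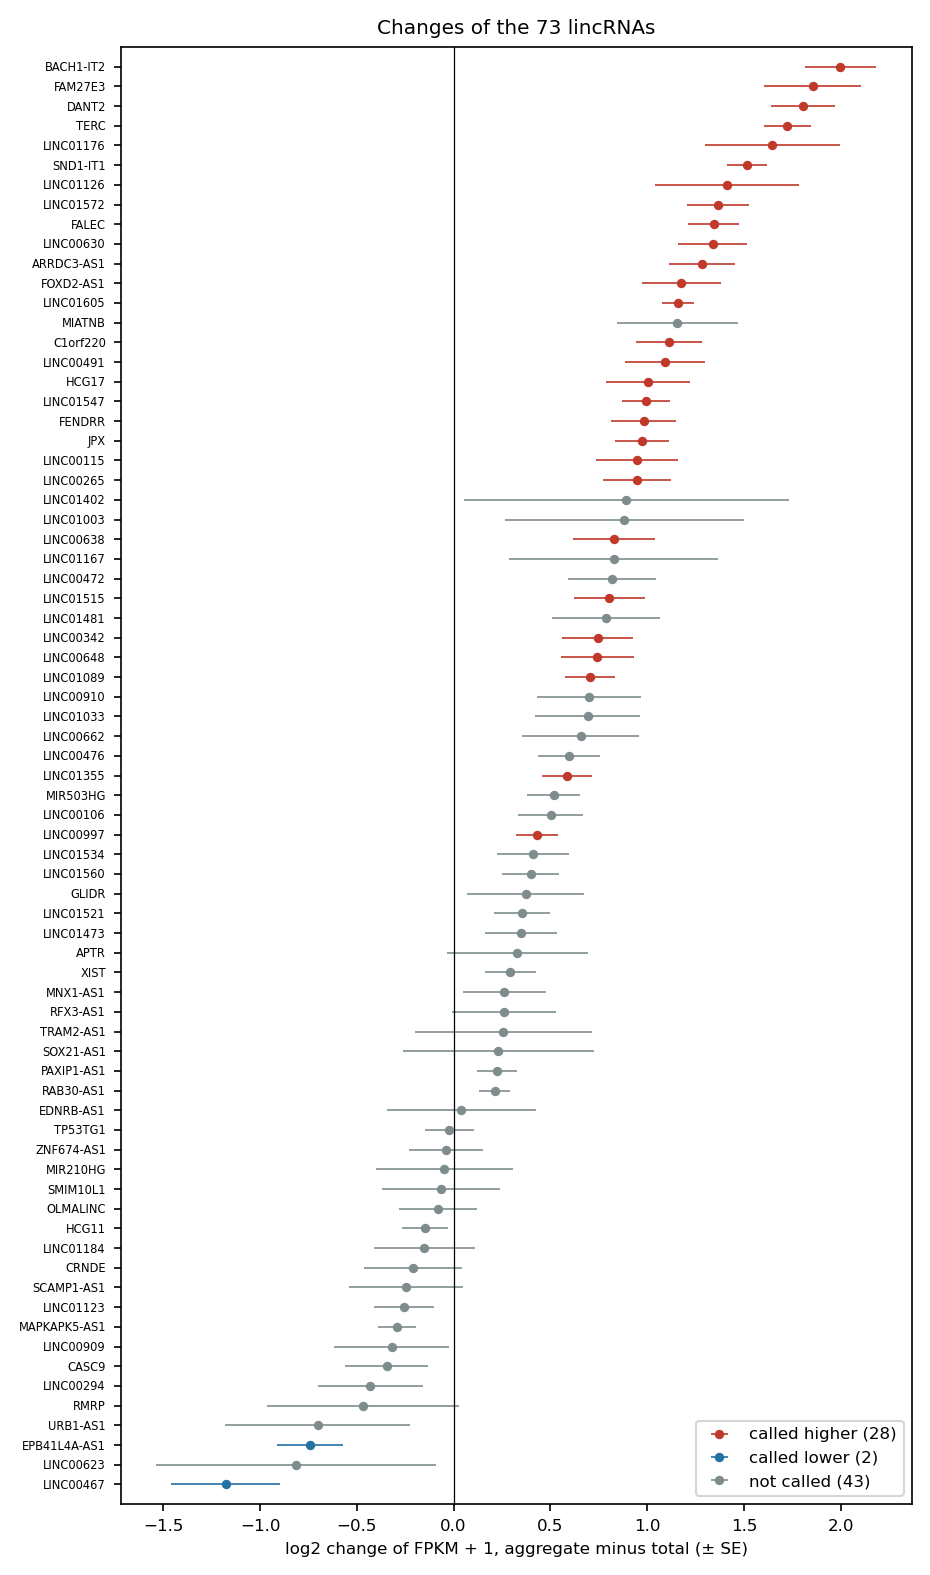
Log2 change of FPKM + 1 (horizontal axis, aggregate minus total) with its standard error for each of the 73 lincRNAs, ordered by change. Red points were called higher (28), blue points lower (2) and grey points were not called (43); most points lie right of the line at 0, from BACH1-IT2 at 2.00 down to LINC00467 at -1.18.

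The aggregate libraries lay above both total libraries for 44 lincRNAs and below both for 9, and the groups overlapped for 20. Among all genes tested 41.7% lay above and 35% below, and among genes that met the same level 38.9% lay above and 38.9% below. Of the 43 lincRNAs not called, 16 lay above, 7 below and 20 overlapped. Replicates agreed closely in total RNA, where the higher library was a median of 1.08 times the lower and never more than 1.76 times (RFX3-AS1). In aggregates the median was 1.37 times, 12 lincRNAs differed by more than 2-fold between replicates, and LINC00623 differed by 6.76-fold.

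The aggregate values rest on few reads. A lincRNA had a median of 19 reads in each aggregate library, 19 and 23 of the 73 had fewer than 10 reads, and the lowest had 1 read; none was at 0. Over the 44 lincRNAs whose expected count in the shallowest library was 10 reads or more, 23 were called higher and 1 lower with a median change of 0.65. A fit of only the 10195 genes with that count called 26 of the 44 higher and 1 lower. Among all 10195 genes it called 26.2% higher and 26.0% lower, with a median of 0.02. The expected count was averaged over total and aggregate libraries, so lincRNAs high in aggregates met it more easily. BACH1-IT2, with 66 and 59 reads in total RNA, met it at 11.1, and CASC9, with 147 and 191, did not at 9.55. The counts over the 44 lincRNAs are thus partly set by the filter. After the total libraries were thinned to the depth of the aggregates, 9 lincRNAs were called higher and 0 lower in limma (27 and 1 at an unadjusted p under 0.05, where 21.8% of all genes were higher), and the share called higher was 12.3% beside 10.3% of all genes. Without total replicate 1 or without total replicate 2 no lincRNA was called in limma, where 22 and 23 were higher and 0 lower at an unadjusted p under 0.05, beside 13.8% and 13.2% of all genes, and the whole table held 0 and 5 genes called higher. Without aggregate replicate 1 the fit called 49 higher and 8 lower, beside 37.3% and 35.6% of all genes. Without aggregate replicate 2 it called 41 and 10, beside 37.2% and 34.1% of all genes, so calls became more frequent over the whole table. Each of these 28 and 2 lincRNAs kept its sign in each of the 12 to 15 alternative settings in which it was tested.

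**Figure D2:**
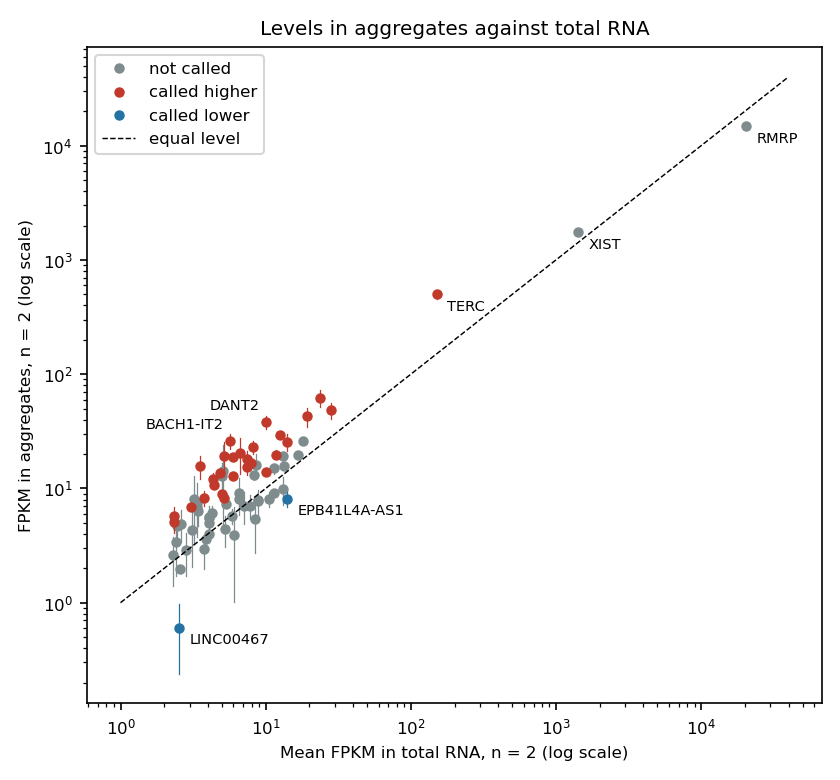
FPKM of each lincRNA in aggregates (vertical axis, points at the mean of n = 2, thin lines joining the 2 libraries) against the mean FPKM in total RNA (horizontal axis, n = 2), both on log scales. Most points lie above the dashed line of equal level, RMRP lies below it, and the lines lengthen toward low levels.

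A few transcripts made up nearly all lincRNA reads. RMRP, XIST and TERC held 95.2% to 96.9% of the reads of the 73 lincRNAs. The other 70 took 0.103% and 0.109% of all reads in total RNA and 0.158% and 0.191% in aggregates, higher in both aggregate libraries. In total RNA the median level was 5.98 and 5.90 FPKM, and in aggregates it was 9.40 and 9.26 FPKM.

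The 3 abundant RNAs did not change together. TERC, the RNA that carries the template of telomerase, had 148 and 153 FPKM in total RNA and 454 and 549 FPKM in aggregates, from 292 and 261 aggregate reads. Both aggregate libraries were far above both total libraries, and TERC rose by 1.72 ± 0.12 (limma, adjusted p = 0.00673). RMRP, the RNA subunit of the RNase MRP enzyme that cleaves precursor ribosomal RNA, had 19934 and 20800 FPKM in total RNA and 14679 and 14770 FPKM in aggregates. Its aggregate libraries were both below the total libraries, yet the change of -0.47 ± 0.50 was not called (adjusted p = 0.492). Its replicates lay closer together than this standard error, which limma draws in part from the trend of spread with level. XIST, which coats and silences the inactive X chromosome, had 1389 and 1457 FPKM in total RNA and 1730 and 1759 FPKM in aggregates. Its groups did not overlap, and its change of 0.29 ± 0.13 was not called (adjusted p = 0.148). XIST reversed to -1.46 ± 0.21 under quantile normalization (adjusted p = 0.0135), which replaces each value by the mean over libraries of the values at its rank.

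The 2 lincRNAs named as intronic transcripts of other genes were both called higher, beside 20.6% of all genes that met the same level. BACH1-IT2, named as an intronic transcript of the transcription factor gene BACH1, had 5.98 and 5.30 FPKM in total RNA and 21.9 and 29.7 FPKM in aggregates, from 21 reads in each aggregate library. It rose by 2.00 ± 0.18 (limma, adjusted p = 0.00797), the highest change of the 73. SND1-IT1, inside the gene of the nuclease SND1, had 5.68 and 6.16 FPKM in total RNA and 18.3 and 19.3 FPKM in aggregates, and rose by 1.52 ± 0.11 (adjusted p = 0.00667). Both intronic transcripts had aggregate libraries well above their total libraries. The genes around them changed less: BACH1 went from 18.6 and 18.7 FPKM to 28.4 and 22.9 FPKM (0.43 ± 0.13, adjusted p = 0.0674, not called). SND1 went from 89.9 and 88.9 FPKM to 116 and 130 FPKM and rose by 0.46 ± 0.08 (adjusted p = 0.0228). The difference between an intronic transcript and its host was not tested. Whether counting used the strand is not given in the sources used here, so reads of an intronic or antisense transcript and unspliced reads of the gene it overlaps cannot be told apart.

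On the X chromosome, 7 of the lincRNAs could be placed through gene identifiers in the intron table, which held 46 of the 73. Of the 7, 3 were called higher, beside 20.6% of all genes that met the same level. DANT2 (ENSG00000235244, introns listed over chrX:115919149-115968960 in hg38), a transcript at the DXZ4 repeat locus, had 10.8 and 9.34 FPKM in total RNA and 33.2 and 42.7 FPKM in aggregates. It rose by 1.81 ± 0.16 (limma, adjusted p = 0.00789), with no overlap of the groups. LINC00630 (ENSG00000223546, chrX:102769341-102884142) had 23.4 and 23.9 FPKM in total RNA and 52.1 and 72.05 FPKM in aggregates, and rose by 1.34 ± 0.18 (adjusted p = 0.0128). JPX (ENSG00000225470, chrX:73944946-73958058), a neighbour of XIST that activates it, had 2.94 and 3.13 FPKM in total RNA and 6.45 and 7.42 FPKM in aggregates. Both aggregate libraries were above the total libraries, and JPX rose by 0.97 ± 0.14 (adjusted p = 0.0146). Its partner XIST, given above, had the smaller change; the difference between them was not tested.

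**Figure D3:**
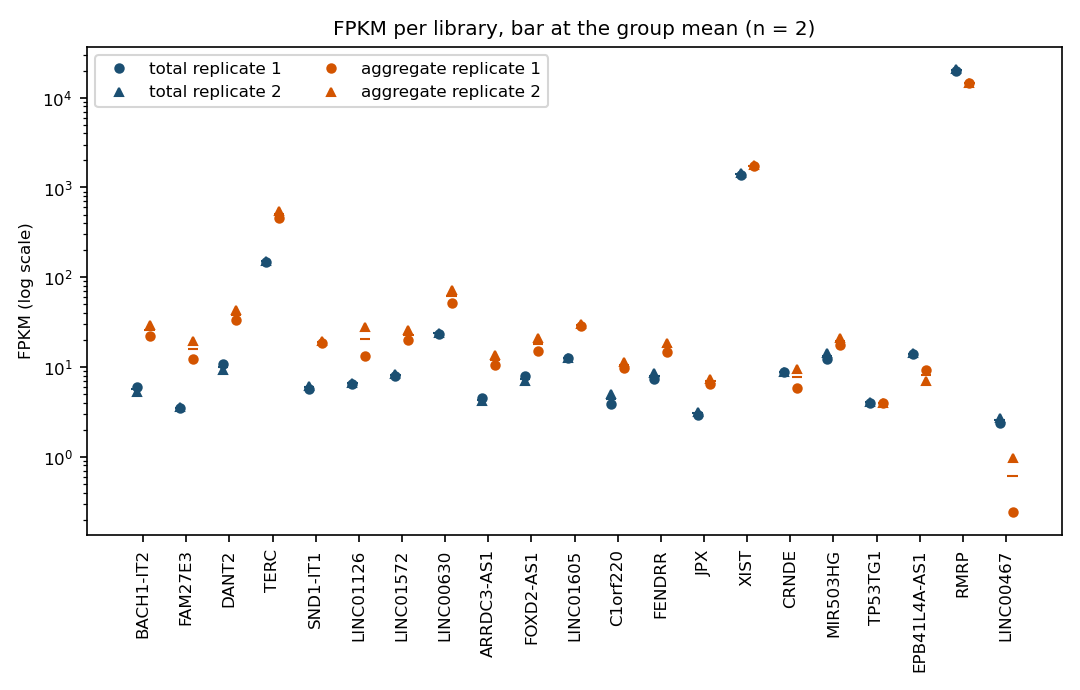
FPKM on a log scale for 21 of the lincRNAs in each library, with blue for total RNA and orange for aggregates, circles for replicate 1, triangles for replicate 2 and a bar at the mean of each group (n = 2). The orange points of the 14 leftmost transcripts, BACH1-IT2 to JPX, all lie above the blue ones, while those of EPB41L4A-AS1, RMRP and LINC00467 lie below.

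Numbered lincRNAs, those named only by a LINC number, made up 36 of the 73. Of these, 16 (44.4%) were called higher and 1 (2.78%) lower, with a median change of 0.72. Among all genes that met the same level 20.6% were called higher and 22.1% lower. LINC01572 (ENSG00000261008, chr16:72283634-72664891) had 7.96 and 8.45 FPKM in total RNA and 19.9 and 25.9 FPKM in aggregates, and rose by 1.37 ± 0.16 (limma, adjusted p = 0.0104). LINC01605 had 12.5 and 12.7 FPKM in total RNA and 28.5 and 30.2 FPKM in aggregates, and rose by 1.16 ± 0.08 (adjusted p = 0.00673). Replicates of both lincRNAs lay close together beside the gap between the groups. LINC01126 had 6.52 and 6.69 FPKM in total RNA, but its aggregate libraries lay apart at 13.3 and 27.7 FPKM. It rose by 1.41 ± 0.37 with an adjusted p of 0.0496, at the edge of the call. LINC00342, among the 5 lincRNAs highest in total RNA, had 27.1 and 29.0 FPKM there and 40.4 and 56.2 FPKM in aggregates, a rise of 0.75 ± 0.18 (adjusted p = 0.0424).

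The 2 called decreases were a numbered lincRNA and a snoRNA host. LINC00467, whose transcript is known to encode a small protein, had 2.37 and 2.71 FPKM in total RNA and 0.240 and 0.973 FPKM in aggregates. The aggregate values rest on 1 and 3 reads, and LINC00467 fell by 1.18 ± 0.28 on the log2 scale (limma, adjusted p = 0.0401). EPB41L4A-AS1, which carries a snoRNA in an intron, had 14.1 and 14.2 FPKM in total RNA and 9.35 and 6.90 FPKM in aggregates, from 33 and 18 reads. It fell by 0.74 ± 0.17 (adjusted p = 0.0362), and both its aggregate libraries lay below both total libraries. The depth-scaled ratio of pooled aggregate to total reads of LINC00467 was 0.217, with an exact 95% interval for counting error of 0.0587 to 0.563. LINC00467 was not called at a pseudocount of 0.1 (adjusted p = 0.0703), and EPB41L4A-AS1 was not called in the fit with the replicate block (adjusted p = 0.0526).

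Among the 14 lincRNAs with an antisense-style name, 2 (14.3%) were called higher and 1 (7.14%) lower, with a median change of 0.22. Among all genes that met the same level 20.6% were called higher and 22.1% lower. For the partner genes below, the shares of all genes tested were 22.2% and 19.7%. ARRDC3-AS1, opposite the arrestin-domain gene ARRDC3, had 4.47 and 4.17 FPKM in total RNA and 10.4 and 13.7 FPKM in aggregates, and rose by 1.28 ± 0.17 (limma, adjusted p = 0.0128). FOXD2-AS1, beside the forkhead gene FOXD2, had 7.89 and 6.90 FPKM in total RNA and 15.1 and 21.3 FPKM in aggregates, and rose by 1.18 ± 0.20 (adjusted p = 0.0202). Neither gene's libraries overlapped between groups. Of the 14 antisense names, 13 had a partner gene that was tested: 4 partners were called higher and 1 lower, and in 1 pair both were called in the same direction, FOXD2-AS1 with FOXD2 (1.16 ± 0.20). MNX1 rose by 1.23 ± 0.09 while MNX1-AS1 had a change of 0.26 ± 0.21, and URB1 rose by 0.91 ± 0.08 while URB1-AS1 had a change of -0.70 ± 0.48. SCAMP1 fell by 1.13 ± 0.16 while SCAMP1-AS1 had a change of -0.25 ± 0.29. These pairs are given side by side, and their differences were not tested.

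Other named lincRNAs were mixed. C1orf220 had 3.86 and 4.95 FPKM in total RNA and 9.80 and 11.5 FPKM in aggregates, and rose by 1.11 ± 0.17 (limma, adjusted p = 0.0162). FAM27E3, one of a family of near-identical genes among which reads may be split, had 3.49 and 3.55 FPKM in total RNA and 12.1 and 19.3 FPKM in aggregates, and rose by 1.85 ± 0.25 (adjusted p = 0.0129). FENDRR (ENSG00000268388, chr16:86477199-86508654), a lincRNA needed for heart and body wall development in mice, had 7.32 and 8.54 FPKM in total RNA and 14.7 and 18.8 FPKM in aggregates. FENDRR rose by 0.98 ± 0.17 (adjusted p = 0.0198), and its divergent neighbour FOXF1 had a change of 0.28 ± 0.13 that was not called (adjusted p = 0.159). CRNDE, named for its expression in colorectal tumours, had 8.90 and 8.77 FPKM in total RNA and 5.82 and 9.63 FPKM in aggregates, so its groups overlapped (-0.21 ± 0.25, adjusted p = 0.546). TP53TG1, a target of p53, had 4.02 and 4.07 FPKM in total RNA and 3.94 and 3.99 FPKM in aggregates, a change of -0.02 ± 0.13 (adjusted p = 0.903) from 4 and 3 aggregate reads. MIATNB, a neighbour of MIAT, lay just short of the call at 1.16 ± 0.31 (adjusted p = 0.0523), with 5.01 and 4.97 FPKM in total RNA and 16.7 and 9.05 FPKM in aggregates.

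MicroRNA hosts are transcripts whose introns or exons are cut into microRNA precursors. The 2 hosts among the 73 were not called. MIR503HG had 12.2 and 14.2 FPKM in total RNA and 17.7 and 21.0 FPKM in aggregates, without overlap, and its change of 0.52 ± 0.14 had an adjusted p of 0.0508 (limma). MIR210HG, host of a microRNA induced by low oxygen, had 3.05 and 2.62 FPKM in total RNA and 1.71 and 4.05 FPKM in aggregates, so its groups overlapped; its change of -0.05 ± 0.35 became 0.40 ± 0.12 without aggregate replicate 1 (adjusted p = 0.0408). Of 37 microRNA hosts of any gene type listed, 17 were tested, and 13 of these had at least 1 FPKM in both total libraries. Among the 13, 4 were called higher and 0 lower, with a median change of 0.52: MIR600HG (1.32 ± 0.11), MIR4697HG (1.05 ± 0.15), DLEU2 (0.52 ± 0.11) and MIR646HG (1.41 ± 0.21). Of all genes tested 22.2% were called higher and 19.7% lower, and the difference from these shares was not tested. MIR663AHG (0 and 0 reads in total RNA, 8 and 5 reads in aggregates) and MIRLET7BHG (49 and 57 reads, 24 and 23 reads) passed the filter on low values through the aggregate libraries alone, so they could be tested only because they were high there, and they are not counted.

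Of 13 RNAs listed that act in the nucleus or on chromatin, whatever their type, 9 were tested, and 8 of these had at least 1 FPKM in both total libraries. Among the 8, 3 were called higher and 0 lower, with a median change of 0.23, and JPX was the only one of these 3 among the 73. Of all genes tested 22.2% were called higher and 19.7% lower, and the difference from these shares was not tested. LINC-PINT, induced by p53, rose by 1.09 ± 0.14 (limma, adjusted p = 0.0121), and FIRRE, an X-linked RNA that organises nuclear contacts, by 0.59 ± 0.11 (adjusted p = 0.0243). TSIX, the antisense partner of XIST, had 0.227 and 0.376 FPKM in total RNA and 1.05 and 1.57 FPKM in aggregates; it passed the filter through the aggregates alone and is not counted. TSIX and XIST overlap in the genome, and the limit on strand given above holds for them. HOTAIR had 7.18 and 8.05 FPKM in total RNA and 7.65 and 9.87 FPKM in aggregates and was not called (0.17 ± 0.17, adjusted p = 0.455). HOTAIRM1 had 31.6 and 28.6 FPKM in total RNA and 22.7 and 12.8 FPKM in aggregates. Its aggregate libraries both lay below the total libraries, and it was not called (-0.78 ± 0.29, limma adjusted p = 0.107). Of 4 cytoplasmic RNAs listed, 2 were tested: DANCR was not called (-0.48 ± 0.17, adjusted p = 0.0872), and TINCR, with 0.548 and 0.563 FPKM in total RNA and 4.28 and 2.13 FPKM in aggregates, passed the filter through the aggregates alone.

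Called lincRNAs were found among shorter and longer transcripts and in each range of level below. Lengths of the 73 ran from 268 to 19245 nt with a median of 2078, and those of the called lincRNAs from 541 nt (TERC) to 9658 nt (JPX). RMRP, the shortest, and XIST, the longest, were also the highest in level and were not called. Of the 37 transcripts at or under the median length 12 were called higher and 0 lower, and of the 36 longer ones 16 were called higher and 2 lower. By mean level in total RNA, 5 of 19 were called higher under 4 FPKM, 13 of 28 from 4 to under 8 FPKM, and 10 of 26 from 8 FPKM up. These counts by length and level stand beside 20.6% called higher and 22.1% lower among all genes at 2 FPKM or more in both total libraries. Across the 73 lincRNAs, which share their libraries, Spearman's rho between length and change was -0.19 and between level and change -0.03. Just inside the level threshold, TRAM2-AS1 had 2.03 and 2.84 FPKM in total RNA and 1.72 and 5.10 FPKM in aggregates, EDNRB-AS1 2.19 and 2.41 against 1.40 and 3.79, and LINC00910 2.20 and 2.68 against 3.49 and 5.91. Just outside it, MIR99AHG had 1.97 and 2.04 FPKM in total RNA and 1.61 and 2.77 FPKM in aggregates, MIR646HG 1.93 and 2.31 against 8.65 and 6.13, and MIR4458HG 2.26 and 1.92 against 2.598 and 1.05.

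Other types that met the same level in total RNA are given beside the 73. All genes at that level had 20.6% called higher and 22.1% lower. Of 155 genes typed antisense 55 (35.5%) were called higher and 11 lower, with a median change of 0.52. Of 55 genes typed processed transcript 26 were called higher and 7 lower, with a median of 0.52. Of 10231 protein-coding genes 18.98% were called higher and 23.2% lower, with a median of -0.04. The 9 lincRNAs left out by name had 3 called higher and 1 lower. Of the lincRNAs below the level, 34 had at least 1 FPKM in both total libraries. Of these 34, 7 were called higher and 1 lower, with a median of 0.33, beside 22.2% and 19.7% of all genes tested. A further 33 were tested through the aggregate libraries alone, which fixes their direction, and are not counted. Differences between types were not tested.

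**Figure D4:**
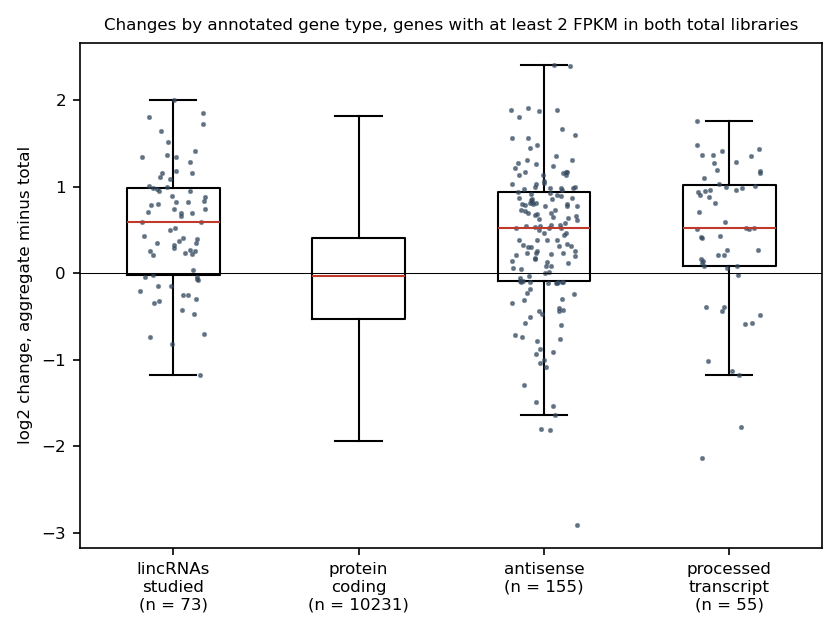
Log2 change of FPKM + 1 (aggregate minus total) for genes with at least 2 FPKM in both total libraries, by annotated type; boxes span the quartiles with the median in red, whiskers reach the last value within 1.5 box lengths, and points are single genes where a type has fewer than 500. The medians of the 73 lincRNAs (0.59), antisense genes (0.52) and processed transcripts (0.52) lie above 0, and that of protein-coding genes lies at -0.04.

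At 96 h the question was whether whole cells with aggregates retain introns of these lincRNAs differently from cells without. The authors' deposited table lists 250 introns in 46 of the 73, of which 164 have an adjusted p. At an adjusted p under 0.05, the authors' deposited values had 1 intron higher with aggregates and 0 lower (18 of the 250 had an unadjusted p under 0.05), beside 1.5% higher and 0.146% lower of the 82091 introns with an adjusted p. The called intron lies in LINC01033 (ENSG00000249069) at chr5:54322923-54390837 (hg38), is 67915 bases long, and has a log2 change of 1.46 ± 0.27 (SE) with an adjusted p of 3.09e-05 in the authors' deposited table. Of its other 8 introns 3 have an adjusted p there and were not called, and 5 have none, and in the 24 h aggregates the gene itself had 8.01 and 4.65 FPKM against 3.38 and 3.45 FPKM in total RNA (0.69 ± 0.27, limma adjusted p = 0.116, not called).

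More introns of the lincRNAs had negative than positive changes in cells with aggregates. By the authors' deposited table, a share of 28.8% (72 of the 250) had a positive change, with a median of -0.18. Among all introns listed there, 50.7% were positive with a median of 0.01, among all lincRNA introns 39.3% with a median of -0.14, and among protein-coding introns 51.6% with a median of 0.02. The median over a gene's introns was negative for 33 of the 46 lincRNAs. Introns of 1 gene share its transcription, so they are not replicates, and the share at an unadjusted p under 0.05 was 7.2% for the lincRNAs beside 7.02% of all introns. XIST went the other way: all 5 of its introns had positive changes, with a median of 0.35 and a lowest adjusted p of 0.409. Introns of lincRNAs called higher in aggregates at 24 h (106 introns in 15 genes) had a median of -0.23 and no called intron, and those of the other 31 genes had a median of -0.14. The table holds no values per sample, so the spread between replicates of these introns could not be seen.

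**Figure D5:**
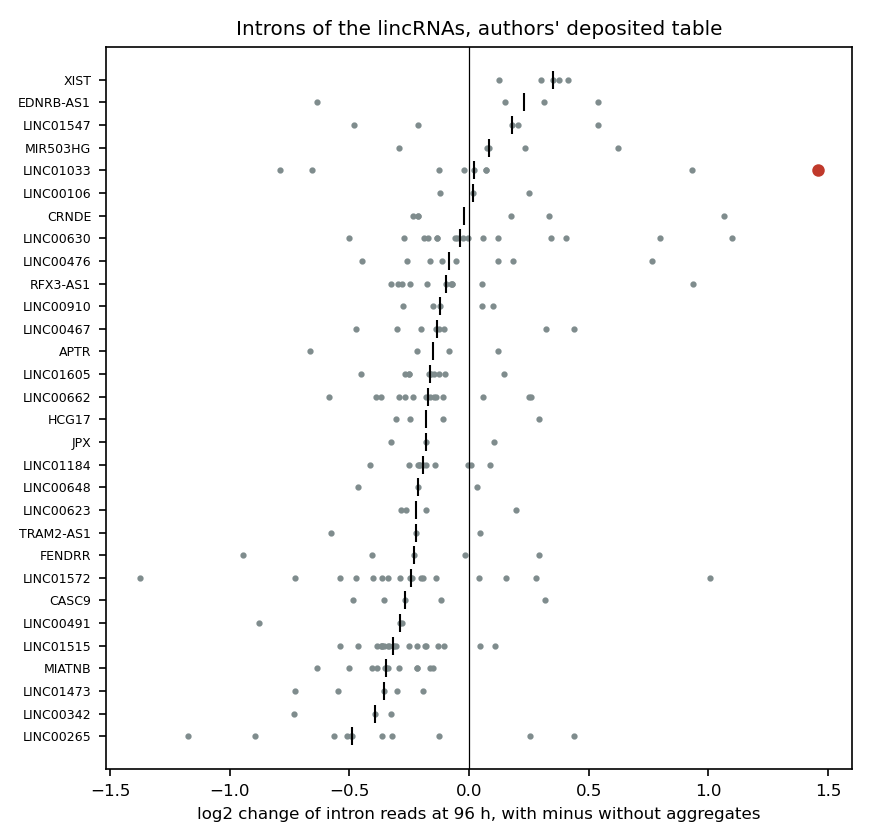
Log2 change of intron reads at 96 h, cells with minus cells without aggregates, from the authors' deposited table, for the 30 lincRNAs with at least 3 introns listed (points are introns, black ticks the median of a gene, genes ordered by median). The red point is the called intron of LINC01033 at 1.46; most ticks lie left of 0, and all points of XIST lie right of it.

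Splicing of the lincRNAs showed no called change at 96 h. The authors' deposited splicing table holds 186 variations in 30 of the 73, and 0 had a change in inclusion of at least 0.1 together with a probability of at least 0.95 as the table gives it, which is the probability that the change is at least 0.2, beside 0.115% of all 107827 variations. The largest expected change was 0.17 in LINC01089, for which the table gives a probability of 0.342 that the change is at least 0.2.

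In mouse brain, 7 of the lincRNAs had a gene of the same name: Crnde, Terc, Smim10l1, Xist, Rmrp, Fendrr and Jpx. Over both genotypes the 6 that passed the filter, all but Fendrr, gave 5 calls between tau immunoprecipitate and total RNA. In P301L brain 26% of genes were called higher and 15% lower, and in WT brain 13.9% and 12.4%. Jpx had 2.54 and 3.05 FPKM in P301L total RNA and 3.90 and 5.90 FPKM in the immunoprecipitate, and rose by 0.62 ± 0.21 (limma, adjusted p = 0.0450). In WT brain Jpx had 2.51 and 2.07 FPKM in total RNA and 4.47 and 3.46 FPKM in the immunoprecipitate (0.59 ± 0.21, adjusted p = 0.0738, not called). Its groups did not overlap in either genotype, and the difference between genotypes was not tested. Smim10l1, which is also typed protein-coding, had 61.7 and 67.4 FPKM in P301L total RNA and 28.1 and 34.1 FPKM in the immunoprecipitate. It fell by 1.03 ± 0.15 there (adjusted p = 0.00131) and by 0.59 ± 0.15 in WT brain (adjusted p = 0.0179). Rmrp fell in both genotypes, from 6461 and 6864 FPKM to 54.7 and 58.1 FPKM in P301L brain. In sarkosyl-insoluble RNA Rmrp had 293 and 172 FPKM in P301L brain and 218 and 325 FPKM in WT brain. Jpx had 4.27 and 3.41 FPKM in that RNA of P301L brain and 2.09 and 1.63 FPKM in that of WT brain. The part of the sarkosyl step in the changes of the immunoprecipitates was not tested. Terc, with 1.06 and 0.933 FPKM in P301L total RNA and 1.90 and 0.226 FPKM in the immunoprecipitate, overlapped between the groups and was not called. The count of calls was 3 without WT immunoprecipitate replicate 2, without WT total replicate 1 or without WT total replicate 2.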

How the data were processed

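STAR 2.6.0c aligned the reads to hg38 (human) and GRCm38.p6 (mouse), per the submitters' processing notes. The counter, its strand setting and the annotation release were not given in the sources used here. FPKM values per gene and library were deposited by the authors, scaled to the length of each gene's longest transcript (the mouse files name no unit and behave as FPKM). For 96 h they deposited log2 changes, a test score, mean signal and p-values per intron, and other values (PSI and probabilities) per splicing variation, per the file headers. Repeated names (63) were merged. RMRP, HCG17 and SMIM10L1 are listed under lincRNA and other types. Whole reads, recovered within 0.01 for at least 99.98% of values, served for depth, read filters, thinning and voom. HEK293 libraries were fitted with limma 3.58.1 (R 4.3.3, mean-variance trend) on log2(FPKM + 1), keeping genes that reached 1 FPKM in 2 or more libraries, and the 12 mouse libraries with 6 group means. The code was tested on simulated data. Fold changes on this scale understate changes of low genes. Whether total and aggregate libraries of 1 number share a plate is not given.

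The members and lists were chosen with earlier results of these data known. The lincRNAs named are up to 12 per direction with the largest called change, no overlap and at least 10 reads expected; the 5 highest in total RNA; members of the role lists; 3 on each side of the threshold; and those with a called intron or variation. The expected reads were averaged over total and aggregate libraries, so lincRNAs high in aggregates met that count more easily. Other names (FENDRR, MIATNB, RFX3-AS1, LINC00623, LINC01089, SMIM10L1 and genes paired by name) were chosen after their values were seen.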

Additional observations from a re-analysis of the deposited data

How the results depend on the processing

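The main counts were 28 higher and 2 lower with a median of 0.59; over the settings that kept all 4 libraries the median ran from 0.45 to 0.66. Higher counts were 11 with no filter on low values (where 6.28% of all genes were called higher) and 9 with thinned totals (10.3%). In the others that kept all 4 libraries they ran from 22 to 39. The 22 came under quantile normalization (19.8% of all genes) and at 4 FPKM or more in total RNA (22.2%), and the 39 with voom (32.8%). Lower counts were 1 with at least 10 reads expected, with no filter, at a pseudocount of 0.1 and at 4 FPKM or more in total RNA, and 0 with thinned totals. Leaving out 1 library in turn gave 0 to 49 higher and 0 to 10 lower, and 3 to 6 calls for the mouse genes; a lone library is assumed to vary like the other group. The fit with the replicate number as a block called 25 higher and 1 lower, beside 15.7% and 15.8% of all genes. The deviations of same-numbered libraries correlated at 0.06, so the numbers are not known to pair samples. Called higher in all 11 fits of all 4 libraries were BACH1-IT2, DANT2, TERC, SND1-IT1, LINC01572, ARRDC3-AS1 and JPX. Reversed values were XIST at -1.46 under quantile normalization, MIR210HG at 0.40 without aggregate replicate 1 (against -0.50 without replicate 2) and EDNRB-AS1 at -0.46 without aggregate replicate 2 (against 0.54 without replicate 1); the cause was not tested. The low depth of the aggregates limits single lincRNAs. Of the 43 lincRNAs not called, 26 kept their sign in every alternative that tested them, 14 or 15 each. Settings without RMRP and TERC, without the 3 genes of several types, and those for mouse genes were chosen after seeing the data; the first gave 27 higher and 2 lower. Rescaling without mitochondrial genes left out small RNA genes only, since no gene named MT- is listed.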

Other observations

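Xist, the mouse gene of the same name as XIST, was present in 1 of the 2 libraries of every mouse group and near 0 in the other. WT total RNA had 97.0 and 0.256 FPKM, WT sarkosyl-insoluble RNA 122 and 0 FPKM, and the WT immunoprecipitates 134 and 0.01003 FPKM in replicates 1 and 2. P301L total RNA had 0.0752 and 93.1 FPKM and the P301L immunoprecipitates 0.290 and 140 FPKM, with the high value in replicate 2. In P301L sarkosyl-insoluble RNA the order was the opposite, with 150 FPKM in replicate 1 and 0.0319 FPKM in replicate 2. A mean of Xist over a mouse group therefore describes neither library. Its fitted change, immunoprecipitate against total, was 0.42 ± 3.97 in P301L brain (limma, adjusted p = 0.949) and 0.08 ± 3.97 in WT brain (adjusted p = 1). The labels do not say which libraries share a mouse.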
